A study of Mus musculus with 15 samples.

Results

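The 47 genes described here encode receptors for dopamine (5), serotonin (13), noradrenaline (8), histamine (3), acetylcholine (5 muscarinic receptors and 9 nicotinic subunits) and adenosine (4). They were taken by name and compared with all 21938 protein-coding genes of the GENCODE M21 annotation of GRCm38. For each gene, the highest-scoring H3K4me3 summit within 1 kb of any annotated transcription start site (TSS) was taken as its best promoter summit, and a gene with at least 1 such summit is called marked. H3K4me3 is trimethylation of lysine 4 of histone H3. The study profiled H3K4me3 by native ChIP-seq of MNase-digested chromatin from amygdala of adult male mice, all F1 hybrids between a 129S1/SvImJ father and a C57BL/6 mother. Its 11 H3K4me3 samples came from WT mice (2 samples, Kmt2a+/+ and Kdm5c+/y) and from Kmt2a-HET (Kmt2a+/-), Kdm5c-KO (Kdm5c-/y) and DM mice (both mutations), with 3 samples each, and 1 input sample accompanied each genotype. The values below come from 1 list of peak summits that pools both WT mice, and the mutant samples were not analysed here. No gene therefore has a replicate error, no genotype is compared, and no test was made. The amygdala was taken whole, and in such bulk tissue fewer nuclei carrying the mark at a gene and less mark per nucleus cannot be told apart.

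Most of these receptors are G protein coupled. Receptors coupled to Gs raise cyclic AMP, those coupled to Gi lower it and often sit on the axon terminals that release the transmitter, and those coupled to Gq act through phospholipase C and calcium. The nicotinic receptors and the 5-HT3 receptor are ion channels opened directly by acetylcholine or serotonin. In the amygdala the monoamines and acetylcholine arrive mainly on axons from distant nuclei, whereas adenosine forms locally, and they tune learning and arousal. H3K4me3 is deposited at promoters, most of all where CpG dinucleotides are dense, and KMT2A is among the enzymes that write the mark whereas KDM5C removes it.

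Promoter sequences of 4 members, chosen by score and CpG content, are examples of marked and unmarked genes with more and with fewer CpGs. Because of that choice they do not show how CpG density differs between marked and unmarked genes. Each sequence is the RefSeq window from 250 bases before to 50 bases after an annotated start (GRCm38.p6). It is printed 5′ to 3′ on the gene's strand, and capitals mark CpG dinucleotides. Htr5a (chr5:27841697-27841996, plus strand), a Gi-coupled serotonin receptor, had the highest score of the 37 marked members, and its window holds 14 CpGs. Adora3 (chr3:105904171-105904470, plus strand), a Gi-coupled adenosine receptor, had the lowest score, and its window holds 1. The Adora3 summit lies 725 bp downstream of that start and is also within 1 kb of a TSS of another gene, Tmigd3. Drd4 (chr7:141291768-141292067, plus strand), a D2-like dopamine receptor, was unmarked with 15 CpGs in the window. Htr2b (chr1:86111931-86112230, minus strand), a Gq-coupled serotonin receptor, was unmarked with 4. Among unmarked members that have such a window, Drd4 has the highest ratio of observed to expected CpG around the outermost GENCODE TSS and Htr2b the lowest.
Htr5a: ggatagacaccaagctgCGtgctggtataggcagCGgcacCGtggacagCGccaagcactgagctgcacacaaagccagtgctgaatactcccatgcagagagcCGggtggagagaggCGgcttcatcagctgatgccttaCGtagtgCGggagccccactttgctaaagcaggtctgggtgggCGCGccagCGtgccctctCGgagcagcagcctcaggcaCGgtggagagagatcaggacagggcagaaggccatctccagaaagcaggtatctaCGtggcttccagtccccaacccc
Adora3: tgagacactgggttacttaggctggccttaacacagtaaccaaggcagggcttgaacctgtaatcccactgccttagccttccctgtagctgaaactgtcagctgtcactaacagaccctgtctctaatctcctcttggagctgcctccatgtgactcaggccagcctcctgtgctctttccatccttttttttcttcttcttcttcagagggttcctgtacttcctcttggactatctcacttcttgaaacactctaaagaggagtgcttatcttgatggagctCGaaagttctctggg
Drd4: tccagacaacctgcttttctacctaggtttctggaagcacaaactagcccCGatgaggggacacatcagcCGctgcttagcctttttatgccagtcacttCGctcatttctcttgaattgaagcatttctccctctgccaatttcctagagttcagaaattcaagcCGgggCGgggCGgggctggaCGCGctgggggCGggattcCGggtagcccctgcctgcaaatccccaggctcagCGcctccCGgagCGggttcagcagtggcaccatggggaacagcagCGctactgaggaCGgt
Htr2b: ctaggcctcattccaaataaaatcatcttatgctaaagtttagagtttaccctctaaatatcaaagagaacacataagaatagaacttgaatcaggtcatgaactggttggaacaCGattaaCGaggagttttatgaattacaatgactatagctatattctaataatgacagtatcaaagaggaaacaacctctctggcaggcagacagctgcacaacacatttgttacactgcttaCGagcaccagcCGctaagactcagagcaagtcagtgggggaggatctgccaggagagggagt

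Of the 47 receptor genes, 37 were marked (78.7%, 95% Wilson interval 65.1 to 88.0%), beside 64.7% of all protein-coding genes. Their scores were mostly low. The score was taken to be the −log10 q-value of the peak against input. It grows with both enrichment and read number and is not an amount of the mark. The median best score was 125.3 over the 37 marked members (quartiles 40.5 and 172.5), against 194.6 over the 14197 marked protein-coding genes (quartiles 129.8 and 230.2). Set against those quartiles, 19 members lay below the lower one, 12 between it and the median, 6 between the median and the upper one, and 0 above. Taking only summits at or above the list's median score of 102.3, 22 of 47 members (46.8%, 33.3 to 60.8%) had one, near the 52.0% of protein-coding genes. Genes of 1 pooled list are not replicates, the intervals cover counting error only, and neither difference was tested.

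**Figure D1:**
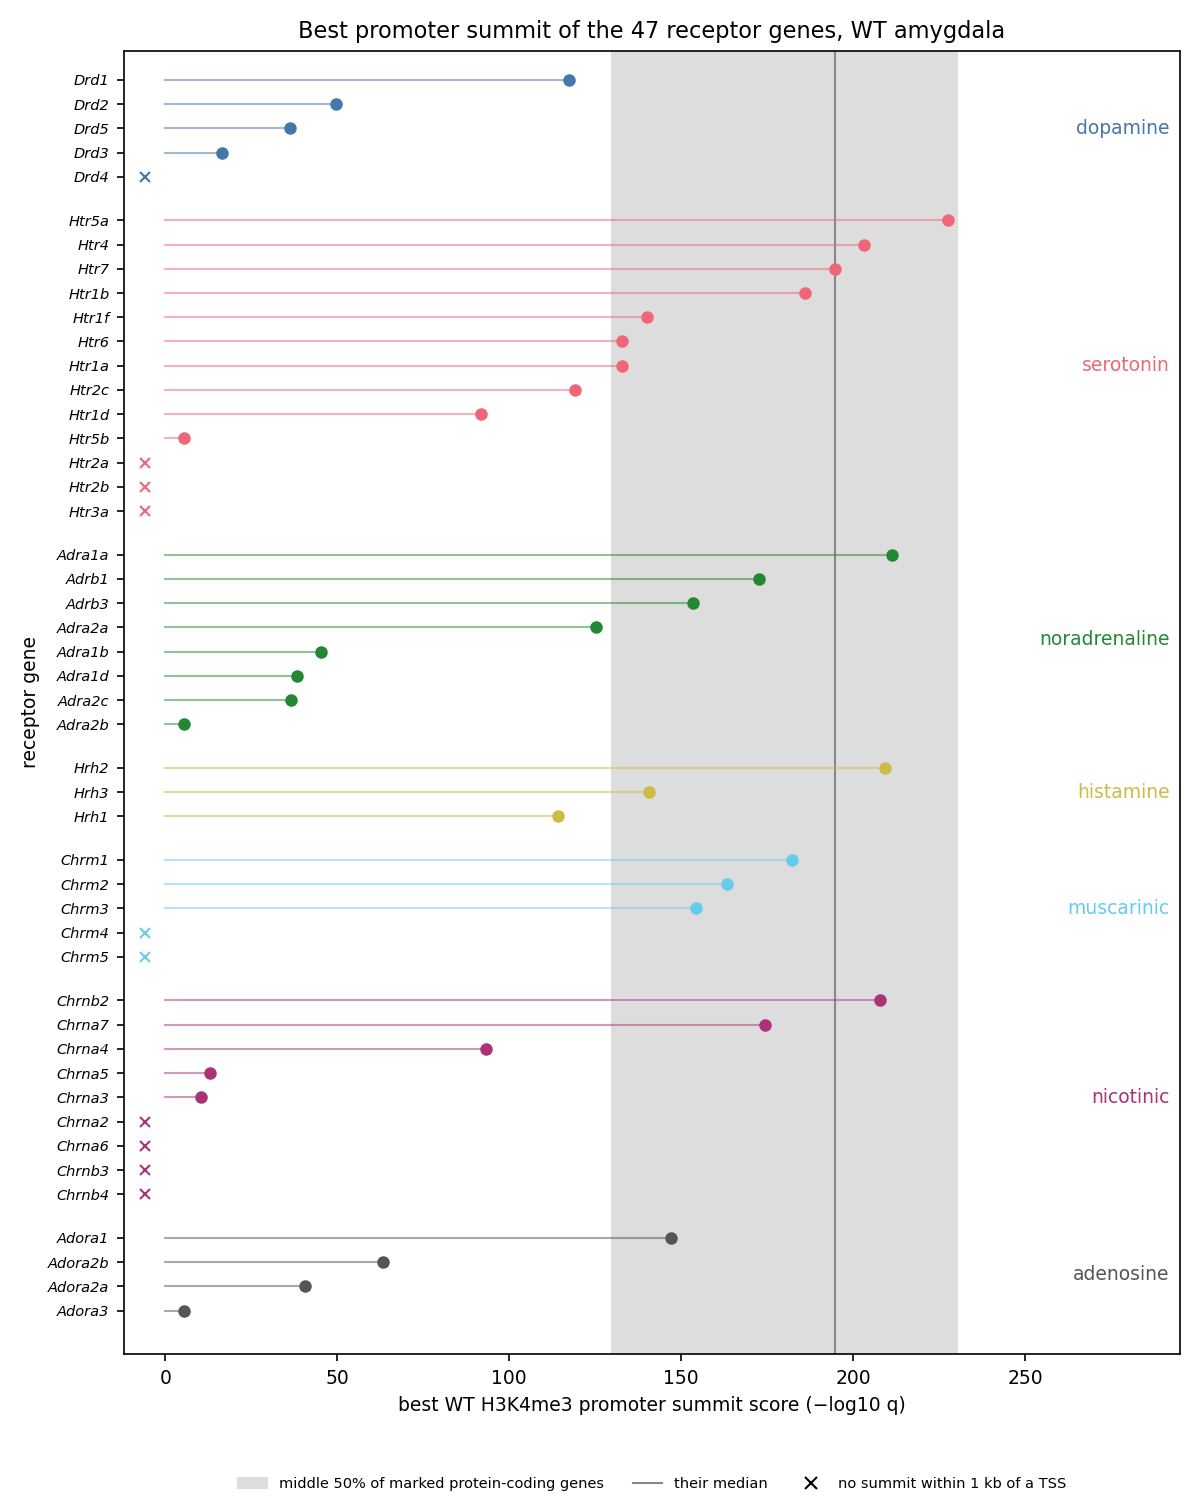
Best WT promoter summit score (−log10 q, linear axis) of each of the 47 receptor genes, grouped by transmitter, with crosses for the 10 genes that have no summit within 1 kb of a TSS. The grey band spans the middle 50% of marked protein-coding genes (129.8 to 230.2) and the line is their median, 194.6. The 37 marked members run from 5.27 (Adora3) to 227.6 (Htr5a), and 19 of them lie to the left of the band.

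Among dopamine receptors, 4 of 5 were marked, with a median best score of 42.9. Drd1, the Gs-coupled receptor of the direct-pathway neurons of the striatum, was highest at 117.4. Its summit lies 398 bp upstream of an internal TSS and inside the gene, 925 bp separating that TSS from the outermost. Drd2, the Gi-coupled autoreceptor and target of antipsychotic drugs, had 49.7 at 188 bp downstream of its TSS and a weaker summit of 10.1 on the other side, 403 bp upstream. Drd5, the other Gs-coupled receptor, had 36.1. Drd3 had a pair of weak promoter summits, 16.5 at 50 bp upstream and 5.31 at 402 bp downstream, and an intronic summit of 18.8 that exceeded both, 39838 bp from the nearest TSS. Only Drd1 was above the list's median score. Drd4 was unmarked although 15 CpGs lie around its start: the nearest summit, 36.4, was 12866 bp upstream, at the promoter of Sct.

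Serotonin receptors held both the strongest promoter and 3 of the 10 unmarked genes. Of the 13 genes, 10 were marked, 8 of them above the list's median score, with a median best score of 136.4. Htr5a scored 227.6 at 156 bp upstream of its TSS, higher than 73.4% of marked protein-coding genes. The 3 Gs-coupled receptors were marked as well: Htr4 at 203.0, Htr7 at 194.6 and Htr6 at 132.8. Htr7 had a further promoter summit of 40.7, 319 bp upstream of another of its 5 TSSs. All 4 Gi-coupled 5-HT1 genes were marked. Htr1b, the terminal autoreceptor, had 186.0, Htr1f had 140.0, and Htr1a, the somatic autoreceptor and a target of buspirone, had 132.7. Htr1d had 91.8, at a TSS 1088 bp downstream of its outermost one, where the GENCODE transcript has no coding sequence.

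The Gq-coupled 5-HT2 genes divided. Htr2c, an X-linked receptor whose mRNA is edited, was marked at 119.3. Htr2a, the main receptor for classical psychedelics, was unmarked by the 1 kb rule but had a summit of 122.7 within its own coding exon, 1277 bp downstream of its only TSS. On the inside of the same threshold stood Htr1a, whose summit lay 931 bp downstream of its TSS, also in coding sequence. Htr2b, which is expressed mainly outside the brain, as in heart valves, had no summit closer than 42950 bp, where the 172.2 summit belongs to the promoter of Armc9. Htr3a, the obligatory subunit of the 5-HT3 channel, had none closer than 74649 bp (205.9, at Usp28). Htr5b, a pseudogene in humans, was close to the bottom of the list at 5.28.

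All 8 noradrenaline receptor genes were marked, with scores from 5.50 to 211.4 and a median of 85.2. Of the Gq-coupled α1 genes, Adra1a had 211.4 at 4 bp downstream of a TSS, whereas Adra1b had 45.1 and Adra1d 38.3. Among the Gi-coupled α2 genes, Adra2a, the receptor of clonidine and guanfacine, had 125.3 at 401 bp upstream of an inner TSS. Adra2c had 36.5 at 507 bp downstream and a higher summit, 107.8, just outside the window at 1165 bp. Adra2b had 5.50, the third lowest of the marked members, at a start with 29 CpGs. Of the Gs-coupled β genes, Adrb1 had 172.5 and Adrb3, known for its role in fat, had 153.3. Both β summits lie at inner TSSs, 1664 bp and 22122 bp from the outermost. At the inner TSS of Adrb1, as at that of Htr1d, the GENCODE transcript has no coding sequence. The Adrb3 summit also lies within 1 kb of the TSS of an antisense gene, Gm45470.

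Adra1b has starts far apart, and only the inner one was marked. The outer window (chr11:43901188-43901487, minus strand) holds 3 CpGs and had no summit within 1 kb, whereas the inner window (chr11:43836440-43836739, minus strand), 64721 bp downstream of the outermost GENCODE TSS, holds 28 CpGs and had the summit of 45.1 at 323 bp downstream. Both windows are shown 5′ to 3′ with CpGs in capitals, because they are starts of the same gene with and without a summit within 1 kb. A further summit of 50.6 lay in the intron, 1587 bp downstream of the inner GENCODE TSS and so outside the promoter window.
Adra1b outer start: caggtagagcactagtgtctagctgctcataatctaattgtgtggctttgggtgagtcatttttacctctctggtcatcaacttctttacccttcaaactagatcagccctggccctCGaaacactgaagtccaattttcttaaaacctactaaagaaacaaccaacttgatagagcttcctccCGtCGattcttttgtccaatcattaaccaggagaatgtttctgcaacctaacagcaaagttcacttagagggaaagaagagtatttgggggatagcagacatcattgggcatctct
Adra1b inner start: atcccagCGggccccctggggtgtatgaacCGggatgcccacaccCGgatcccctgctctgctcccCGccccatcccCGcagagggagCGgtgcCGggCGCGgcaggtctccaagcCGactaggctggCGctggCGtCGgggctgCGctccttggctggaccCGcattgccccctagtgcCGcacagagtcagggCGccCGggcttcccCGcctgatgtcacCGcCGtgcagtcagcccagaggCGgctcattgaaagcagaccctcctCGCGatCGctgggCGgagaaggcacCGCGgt

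Histamine receptors were all marked above the list's median score: Hrh2 (Gs) at 209.2, Hrh3 (Gi, the autoreceptor of histamine neurons) at 140.7, and Hrh1 (Gq, the target of sedating antihistamines) at 114.2. Hrh1 also had a summit of 44.0 near a separate TSS, 5730 bp downstream of its outermost RefSeq start. The start beside it holds 5 CpGs, against 39 in the window beside the main summit, and the farthest RefSeq start of the gene, with 4 CpGs, had no summit within 1 kb.

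Muscarinic receptors either scored above the list's median or were unmarked by the rule. All 3 marked genes scored below 194.6, the median of marked protein-coding genes. Chrm1 and Chrm3, both Gq-coupled, had 182.3 and 154.3, and Chrm2, the Gi-coupled autoreceptor, had 163.3 at 641 bp downstream of its TSS, where a lincRNA gene, 9330158H04Rik, also starts. For Chrm5, a Gq-coupled receptor found on dopamine neurons, the nearest summit was 12718 bp upstream (109.0, at Aven). Chrm4, the Gi-coupled receptor of Drd1-expressing neurons, was unmarked as well, with the nearest summit 4039 bp downstream (29.1, at Mdk). The GENCODE model of Chrm4 is however 1.4 kb long and starts at the coding exon. RefSeq starts, which were looked at after the data had been seen, place it 5060 bp upstream, and 554 bp downstream of that start lay a summit of 152.1, within 1 kb of no other GENCODE TSS. The RefSeq window (chr2:91921939-91922238, plus strand) holds 30 CpGs in 300 bases and is shown, with CpGs in capitals, because the choice of annotation decides whether this gene counts as marked. Of all RefSeq windows 11.7% hold as many CpGs or more, and 93.4% of those had a summit within 1 kb.
Chrm4 RefSeq start: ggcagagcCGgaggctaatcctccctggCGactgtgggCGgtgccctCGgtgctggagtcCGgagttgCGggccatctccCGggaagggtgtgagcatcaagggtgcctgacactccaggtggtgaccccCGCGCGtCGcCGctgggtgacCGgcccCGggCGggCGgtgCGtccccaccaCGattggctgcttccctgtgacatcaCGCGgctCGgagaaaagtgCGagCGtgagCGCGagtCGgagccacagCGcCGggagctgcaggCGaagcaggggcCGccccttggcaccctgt

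Nicotinic subunits had the most unmarked genes by count, 4 of 9. The marked share, 5 of 9 (55.6%, Wilson interval 26.7 to 81.1%), has an interval that includes the 64.7% of all protein-coding genes. Muscarinic genes had a similar share, 3 of 5 marked (60%), and neither difference was tested. The subunits of the main high-affinity brain receptor were marked, Chrnb2 at 207.9 in its coding sequence and Chrna4 at 93.3 at a TSS 4471 bp from the outermost. Chrna7, which forms receptors on its own and binds α-bungarotoxin, had 174.3. Chrna5, an accessory subunit, had 12.8 and Chrna3, a subunit of autonomic ganglia, had 10.3. These lie beside Chrnb4 in a cluster of 67.9 kb on chromosome 9, which held 2 summits in all, those 2. Chrnb4 itself was unmarked, and the summit nearest to it, 22482 bp downstream, was that of Chrna3. The second cluster, Chrnb3 and Chrna6 on chromosome 8, spans 45.2 kb and held 0 summits. Both genes encode subunits typical of dopamine neurons, and the summit nearest to each was the same one, 18.8, at 6432 bp upstream of Chrnb3 and 51665 bp downstream of the Chrna6 TSS. Chrna2, a subunit of some hippocampal interneurons, had none closer than 10679 bp (132.1, at Ephx2).

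All 4 adenosine receptor genes were marked, but only Adora1, the Gi-coupled receptor through which adenosine lowers transmitter release, was above the list's median score, at 147.1. Adora2b, a Gs-coupled receptor of low affinity, had 63.4. Adora2a, the Gs-coupled receptor of indirect-pathway neurons of the striatum and a target of caffeine, had 40.5 at its first TSSs and 21.1 near a separate TSS further into the gene. Adora3 had 5.27, at a TSS 33837 bp from its outermost one, and this summit also lies within 1 kb of a TSS of Tmigd3, the only other protein-coding gene that shared a best summit with a member, so the 2 genes cannot be told apart there. Another 5 members shared their best summit with a noncoding gene: Htr1b, Htr6, Adra1d, Adrb3 and Chrm2.

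Grouped by coupling instead of ligand, all 10 Gs-coupled genes were marked (7 above the list's median score, median 143.1), as were 14 of 16 Gi-coupled genes (8 above it, median 129.0) and 7 of 10 Gq-coupled genes (5 above it, median 119.3). Of the 10 channel subunits, 5 were marked and 2 lay above the list's median score. The shares over all protein-coding genes were 64.7% marked and 52.0% at or above that score. CpG content followed this grouping only at its ends, with a median observed over expected ratio of 0.66 in Gs-coupled and 0.31 in channel genes. Gi-coupled genes had 0.48 and Gq-coupled genes 0.50, although a larger share of the Gi-coupled genes was marked. The part of CpG content in the counts was not tested. Over all 36 receptors with an assigned G protein and Htr5b, 32 of 37 were marked (86.5%, 95% Wilson interval 72.0 to 94.1%), against 5 of 10 channel subunits (23.7 to 76.3%). The intervals overlap, and the split was not tested.

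Summits sat mostly just inside the genes. Of the 37 best summits, 32 lay downstream of the nearest TSS and 5 upstream, with a median of 209 bp downstream. The same split is not given here for all marked protein-coding genes, so it is not shown to be particular to these receptors. In terms of the gene models, 15 fell in an intron, 12 in a noncoding part of an exon, 8 in coding sequence and 2 upstream of the gene. The 8 in coding sequence belong to Htr1a, Htr5b, Htr7, Adra1d, Adrb3, Chrnb2, Adora2b and Adora3. A total of 5 members had more than 1 promoter summit (Drd2, Drd3, Htr7, Adora2a and Hrh1), and 11 had 14 further summits in the gene body, 107.8 in Adra2c, 122.7 in Htr2a and 50.6 in Adra1b being the highest and the rest at or below 18.8.

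**Figure D2:**
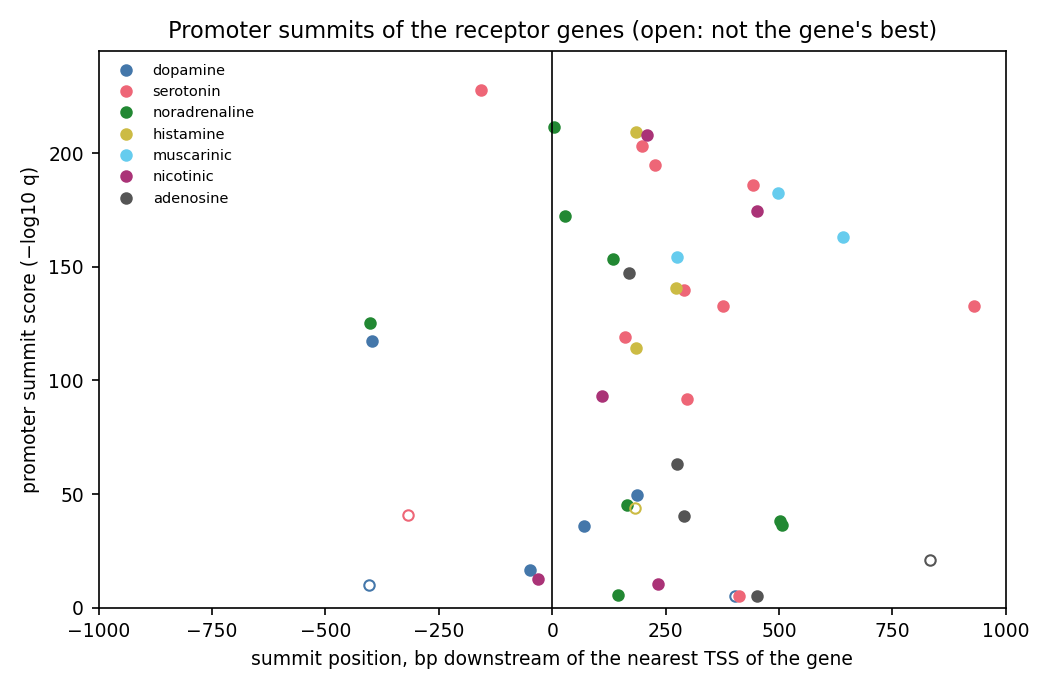
Score (−log10 q) of every promoter summit of the receptor genes against its distance in bp from the nearest TSS of the gene, positive downstream. Filled points are the gene's best summit and open points its others, and colours give the transmitter. Of the 37 best summits 32 lie to the right of the TSS, with a median distance of 209 bp. No such split is given for all marked protein-coding genes.

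CpG content at the promoter was lower in unmarked than in marked receptor genes. The ratio of observed to expected CpG, taken over a window reaching 500 bp to each side of the gene's outermost TSS, had a median of 0.58 in the 37 marked members (0.15 to 0.92) and of 0.24 in the 10 unmarked ones (0.114 to 0.585). Over all protein-coding genes the medians were 0.71 with a summit and 0.18 without. Below a ratio of 0.4, 9 of 17 members were marked, beside 23.7% of protein-coding genes. Between 0.4 and 0.6 it was 13 of 15 (80.7% of protein-coding genes), and from 0.6 upward 15 of 15 (95.5%). Drd4 (0.585) and Htr2a (0.405) were the unmarked members above 0.4. The outermost TSS is not always the marked one: for 11 members the marked TSS was over 500 bp away, and in 7 of these the ratio was higher there, 0.70 against 0.15 in Chrna4 and 0.69 against 0.25 in Htr1d.

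CpG content at the outermost TSS ordered the scores of the marked receptors poorly. Across the 37 marked members, genes that share 1 pooled library, Spearman's rho between ratio and best score was 0.17. For 11 of them the scored summit belongs to a TSS over 500 bp from the one where the ratio was taken. No rho is given for all marked protein-coding genes, so the low value is not shown to be particular to the receptors. Against marked protein-coding genes in the same decile of CpG content, 29 of the 37 members scored below the median of their decile and 8 above it. Adra2b illustrates the low side, with 5.50 where its decile had a median of 207.7. Chrm1 stood on the high side, with 182.3 at a ratio of 0.19, where its decile had a median of 98.5.

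**Figure D3:**
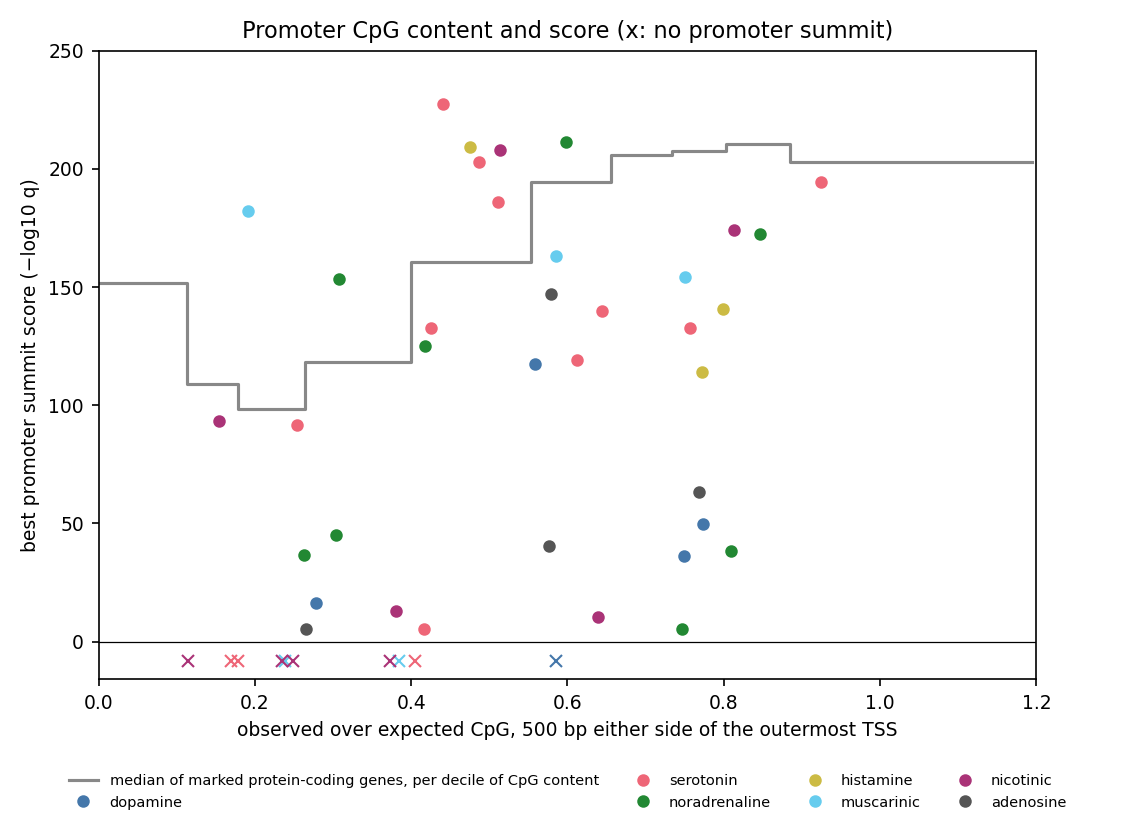
Best promoter summit score (−log10 q) of the receptor genes against observed over expected CpG at the outermost TSS, coloured by transmitter, with crosses below 0 for the 10 unmarked genes. The grey line gives the median score of marked protein-coding genes in each decile of CpG content. Of the 37 marked members, 29 lie below the line.

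CpGs were also fewer at RefSeq starts without a summit than at those with one, in a split by start and not by gene. Starts without a summit include some of the marked genes Adora1, Adra1b, Adrb1, Drd3, Hrh1 and Htr1d. The start of Chrm4, unmarked by the rule, is among those with one. A RefSeq window was found for 36 of the 47 members, 46 windows in all, and none was found for Adora2a, Adra1a, Adra1d, Adrb3, Chrm1, Chrna2, Chrna6, Chrnb3, Htr3a, Htr4 and Htr5b. Of the 46 starts, 35 had a summit within 1 kb and a median of 23 CpGs in 300 bases (1 to 47), whereas the 11 without had a median of 6 (2 to 28). The corresponding medians over all 32817 windows were 21 and 3. The most CpG-rich starts without a summit were that of Adrb1 and the outer one of Adora1, with 28 and 26 CpGs and the summit beyond 1 kb, at 1774 and 1049 bp downstream.

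**Figure D4:**
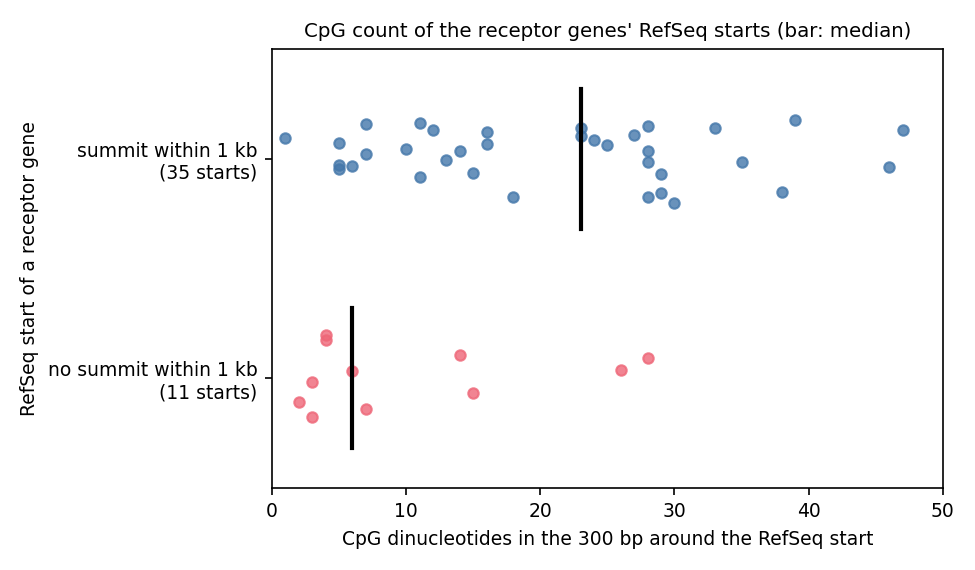
Number of CpG dinucleotides in the 300 bp around each of the 46 RefSeq starts of receptor genes, split by whether a WT summit lies within 1 kb, with the median as a bar. Starts with a summit have a median of 23 and those without a median of 6, and 2 starts without a summit hold 26 and 28.

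In these windows a GC box (GGGCGG, either strand) was found in 29 of the 46 member windows (63.0%), against 35.6% of all windows. Some genes have several windows, and by gene it was found in 25 of 36. The GC box itself contains a CpG, and 35 of the 46 member windows had a summit within 1 kb, against 46.0% of all windows. The part of CpG content in this contrast was not tested. A CCAAT box (CCAAT, either strand) was found in 13 member windows (28.3%), against 37.4%. A TATA box (TATAAA, either strand) was found in 1 member window, that of Adra2a, against 13.6% of windows, and the cyclic AMP response element TGACGTCA in 0, against 1.79%. The core of RE1, the element that the repressor REST binds in many neuronal genes, was searched as CAGCACC and GGACAG 2 bases apart on either strand. It was present in 12 of all windows (0.037%), and 1 of them was that of Hrh3, 183 bp upstream of the RefSeq start on the strand opposite to the gene (chr2:180104570-180104596). It is printed on its own strand with the match in capitals.
Hrh3 RE1 core: cgcgggCAGCACCacGGACAGcgccgc
These are matches of letters in short windows, and Hrh3 was marked at 140.7.

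The rest of the pathway was marked very unevenly. Of 7 genes for monoamine synthesis, 3 were marked, all weakly: Ddc (27.8), which decarboxylates both L-DOPA and 5-hydroxytryptophan, Hdc (4.85), which makes histamine, and Th (2.03), the first enzyme of catecholamine synthesis. Dbh, Pnmt, Tph1 and Tph2 were unmarked, as was Chat, which makes acetylcholine. Among vesicular transporters, Slc18a2 of monoamine vesicles had 24.5 and Slc18a3 of acetylcholine vesicles had no summit. Slc18a1 had 303.7, but that summit lies within 1 kb of a TSS of Atp6v1b2 as well. Of the 8 plasma membrane transporters 7 were marked, with 6.24 for the dopamine transporter Slc6a3, 16.0 for the serotonin transporter Slc6a4 and 18.8 for the choline transporter Slc5a7, whereas the noradrenaline transporter Slc6a2 was unmarked. The others on that list, which carry organic cations or nucleosides, had 48.1 (Slc22a3), 97.1 (Slc29a1), 108.7 (Slc29a4) and 189.9 (Slc29a2).

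Genes acting after the receptor or on the released transmitter were nearly all marked. All 9 breakdown enzymes were, with a median of 158.0, from 37.9 for Ada to 230.1 for Adk; Maoa had 158.0 and Ache 167.1. G protein α subunits and effectors were marked in 18 of 20 cases (median 186.4, lowest 119.7), and all 10 receptor kinases, arrestins, RGS proteins, chaperones and modulators were marked (median 209.6). Of the 8 nicotinic and 5-HT3 subunits outside the 47, 1 was marked, Chrnb1 (46.3). Over these lists together, 50 of 66 genes were marked (75.8%), beside 64.7% of all protein-coding genes.

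Receptors for the fast transmitters glutamate and GABA, also 47 genes, were marked in 41 cases (87.2%, 74.8 to 94.0%). This share overlaps the 37 of 47 of the receptors described here. The scores stood further apart. Of the glutamate and GABA receptor genes 36 (76.6%) were above the list's median score, against 22 (46.8%), and their median best score was 209.7 against 125.3. No test was made of this difference.

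**Figure D5:**
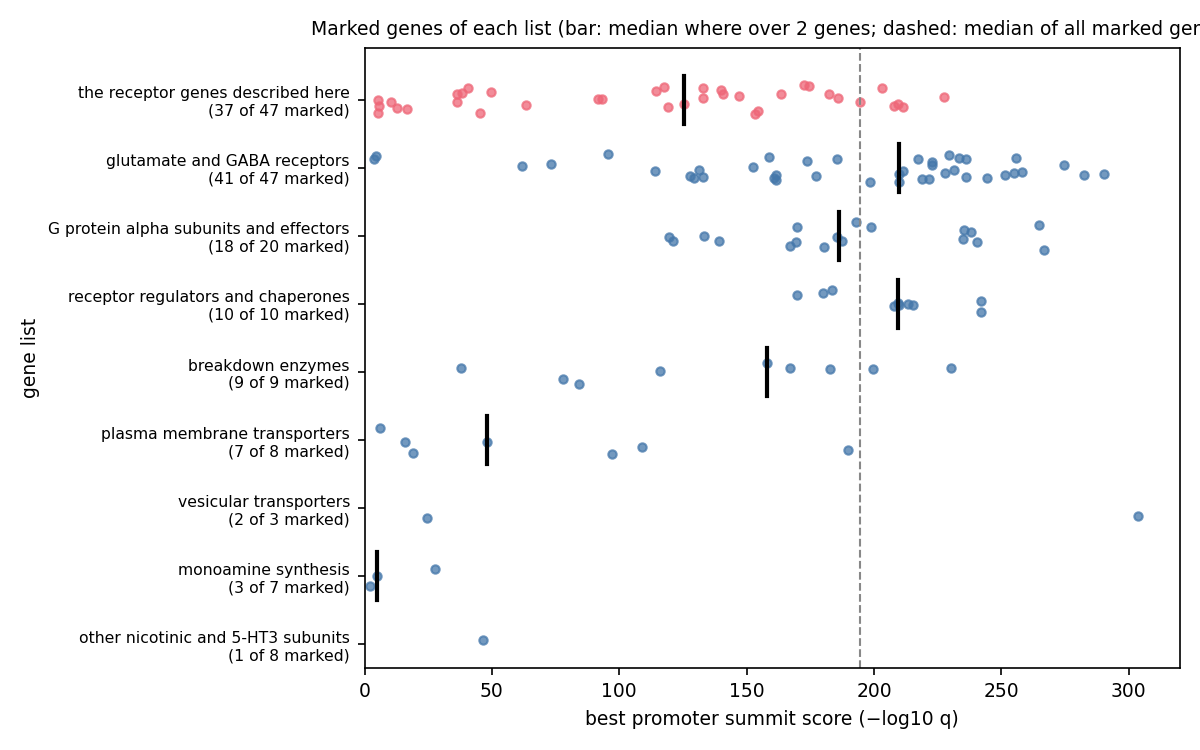
Best promoter summit scores (−log10 q) of the marked genes of each list, 1 point per gene with vertical jitter, and the number marked at the left. Bars are medians where over 2 genes were marked, and the dashed line is the median of all marked protein-coding genes, 194.6. The receptor genes described here have a median of 125.3, the glutamate and GABA receptors 209.7, and the 3 marked monoamine synthesis genes 4.85.

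All listed marker genes of brain cells were marked, beside 64.7% of all protein-coding genes. With so large a background share, these short lists do not show which cells were sampled. All 7 neuronal genes, among them Snap25 and Gad1, were marked (median 199.8), as were the 4 astrocyte genes (29.2 to 188.4) and the 4 oligodendrocyte genes (81.1 to 192.4). All 5 genes typical of striatal projection neurons were marked, among them Rgs9 at 183.3. Striatal tissue borders the amygdala, and part of such neurons in the scores of Drd1, Drd2, Adora2a and Chrm4 was not tested. Of 8 genes specific to other organs, 1 was marked, Ckm at 9.05, near a TSS of Klc3 too.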

How the data were processed

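Native ChIP was performed on MNase-digested amygdala nuclei. Per the Methods, Bowtie was used by the authors to map reads to mm10 (up to 2 mismatches, unique reads only), and they called peaks with MACS2 against input at a q-value below 0.1; the submitters' processing notes give MACS2 version 2.1.0.20140616. The authors deposited 1 list of 24162 WT summits, pooled over 2 mice, each 1 bp wide. Its deposited score was read as −log10 of the q-value: the file does not name the scale, and the lowest score was 1.18. Read depth is not given by the list, so scores carry no error. No per-sample column was left unmatched (0).

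The 24139 summits on the autosomes, X and Y were assigned to every GENCODE M21 TSS within 1000 bp, the promoter width of the Methods. The other steps of the study, for all genotypes, were not repeated. The members and gene lists were chosen with earlier results of these data known. Every member is accounted for, with fuller values for the 10 highest and 5 lowest scores, members with several promoter summits, unmarked members and members that share a summit with another gene. Shares carry 95% Wilson intervals, which cover counting error only. Sequences are RefSeq windows of GRCm38.p6, and the motif search used both strands. Python 3.11.15, pandas 2.3.3, scipy 1.17.1 and pysam 0.24.0 were used, and the assignment was tested on simulated data. Alternatives changed the score limit, the window, the TSSs used and the joining of summits.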

Additional observations from a re-analysis of the deposited data

How the results depend on the processing

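Taking only summits at or above the list's median score left 22 marked members and 52.0% of protein-coding genes. The share of protein-coding genes that were marked came to 57.1% within 500 bp of a TSS, 67.1% within 3 kb, 63.5% from protein-coding transcripts only, 58.2% from the outermost TSS only and 65.6% with RefSeq starts added, an alternative chosen after seeing the data. The same changes gave 33 (without Htr1a, Adra1d, Adra2c and Chrm2), 38 (with Htr2a), 35 (without Htr1d and Adrb1), 30 (without Htr1d, Adra1b, Adrb1, Adrb3, Chrna4, Adora1 and Adora3) and 38 (with Chrm4) marked members, and joining summits within 1 kb gave 36 (without Adra2c). All noradrenaline and adenosine receptor genes were marked only when inner TSSs counted: with the outermost TSS alone the counts were 5 of 8 and 2 of 4. No paired analysis was possible because both WT mice are merged into 1 list, which also leaves no replicate to leave out. The list holds no read counts, so a gene without a summit is not shown to lack the mark.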
